A study of Populus trichocarpa with 24 samples.

Results

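Sucrose synthase splits sucrose, the sugar that plants move through the phloem, into fructose and UDP-glucose. UDP-glucose is the substrate from which cellulose is spun and the starting point of the sugar nucleotides of xylan, so the enzyme stands between carbon import and cell wall growth in sink tissues such as developing wood. A mature leaf is a source tissue, which makes sucrose and exports it. The 3 loci described here are SUS1 (Potri.018G063500), SUS2 (Potri.006G136700) and SUS3 (Potri.002G202300), taken by their identifiers from the 41335 loci of the deposited count table. The names are those under which the loci were chosen. The table holds identifiers alone, and the reference used here matched 0 of them, so the names were not checked, and positions, gene lengths and sequences were not used here.

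RNA was sequenced from 24 libraries of Populus trichocarpa, a poplar whose wood is widely studied, in 8 groups of 3. The labels name no transgene, no treatment and no genotype beyond the species, and give an age of 6 months throughout. Tissue groups were shoot tip (internodes near the apex), leaf (young but fully expanded), phloem (scraped from the inside of the bark), differentiating xylem (scraped from stems without bark) and primary root, the last from seedlings that had rooted in water and not from the greenhouse trees. Capture groups were fiber cells, vessel cells, and a mix of fiber, vessel and ray cells, all cut from stem wood with a laser, and their RNA alone was amplified before library preparation. Fibers carry the thick walls that support the stem, vessels conduct water and die at maturity, and rays are living cells that run across the wood. The labels do not say that the replicates came from separate trees, so p-values here measure the spread between these samples, which may be technical.

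Library totals ran from 5689642 to 30917688 counts, and the 3 loci were counted between 168 and 106569 times in a library. Levels are given as CPM, the usual read count normalised to library size, on unscaled library totals. Fold changes come from edgeR fits with TMM scaling, which corrects for a few very abundant transcripts. That scaling matters for 2 tissues: TMM factors were 0.65 to 0.76 in leaf and 1.32 to 1.39 in root, against 0.99 to 1.0 in xylem. Without it the median log2 fold of all loci moved by 0.53 for xylem over leaf and by -0.38 for xylem over root. On the CPM scale leaf is therefore placed lower, and root higher, than on the TMM scale. Phloem replicate 3 also stood apart in its group, with a factor of 0.70 against 1.10 in the others. Counts were not divided by length, so levels are compared between groups and not between loci. As a check of the labels, 5 loci listed as secondary wall cellulose synthases from recalled nomenclature summed to 7412 to 10704 CPM in xylem and 7144 to 9789 CPM in fiber, but to 63.2 to 351 CPM in the other 4 tissues. In vessel captures they summed to 1124 to 1819 CPM and in the mix to 2393 to 2768 CPM. Markers of the other tissues could not be applied for want of gene names.

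SUS1 and SUS2 were far higher in differentiating xylem than in any other tissue, while SUS3 was low in xylem and high in phloem and root. SUS2 had 5545, 4986 and 5575 CPM in the xylem libraries, and the 3 loci together took 0.61% to 0.68% of all counts there. In root it had 1291, 1338 and 1341 CPM, in shoot tip 1176, 766.0 and 716.6 CPM, and in phloem 954.4, 843.6 and 648.8 CPM. Leaf had 62.0, 50.6 and 57.3 CPM. All xylem libraries lay above all others, and all leaf libraries below all others, with the remaining tissues between them. How many of all loci separate in this way was not counted. This and later statements on overlap between groups therefore describe the values only. Xylem held 63.5% of the sum of the 5 tissue means, or 66.5% with TMM-scaled totals.

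SUS1 followed the same outline over a narrower range. It reached 1147, 979.5 and 1202 CPM in xylem, which was 61.3% of the sum of the tissue means. Phloem had 265.8, 227.5 and 172.5 CPM, shoot tip 151.3, 218.3 and 273.4 CPM, and root 233.1, 209.8 and 230.0 CPM, and these groups overlapped one another. Leaf was again lowest, at 36.0, 34.4 and 46.8 CPM. From the highest to the lowest tissue mean the span was 28.4 times for SUS1 and 94.8 times for SUS2, or 20.2 and 66.7 times with TMM-scaled totals.

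SUS3 kept to another pattern. Phloem had 227.5, 465.5 and 138.1 CPM, and root 250.5, 259.3 and 318.4 CPM. Shoot tip had 198.4, 166.7 and 95.3 CPM. Xylem, the peak of the other loci, had 57.9, 116.3 and 50.4 CPM, close to the 56.5, 55.5 and 42.1 CPM of leaf. Every xylem library lay below every phloem and root library, but xylem overlapped both shoot tip and leaf. Replicate 2 was the highest library of both phloem and xylem. Over all loci the libraries with this number also deviated together from their group means in those tissues, with a correlation of 0.41.

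**Figure D1:**
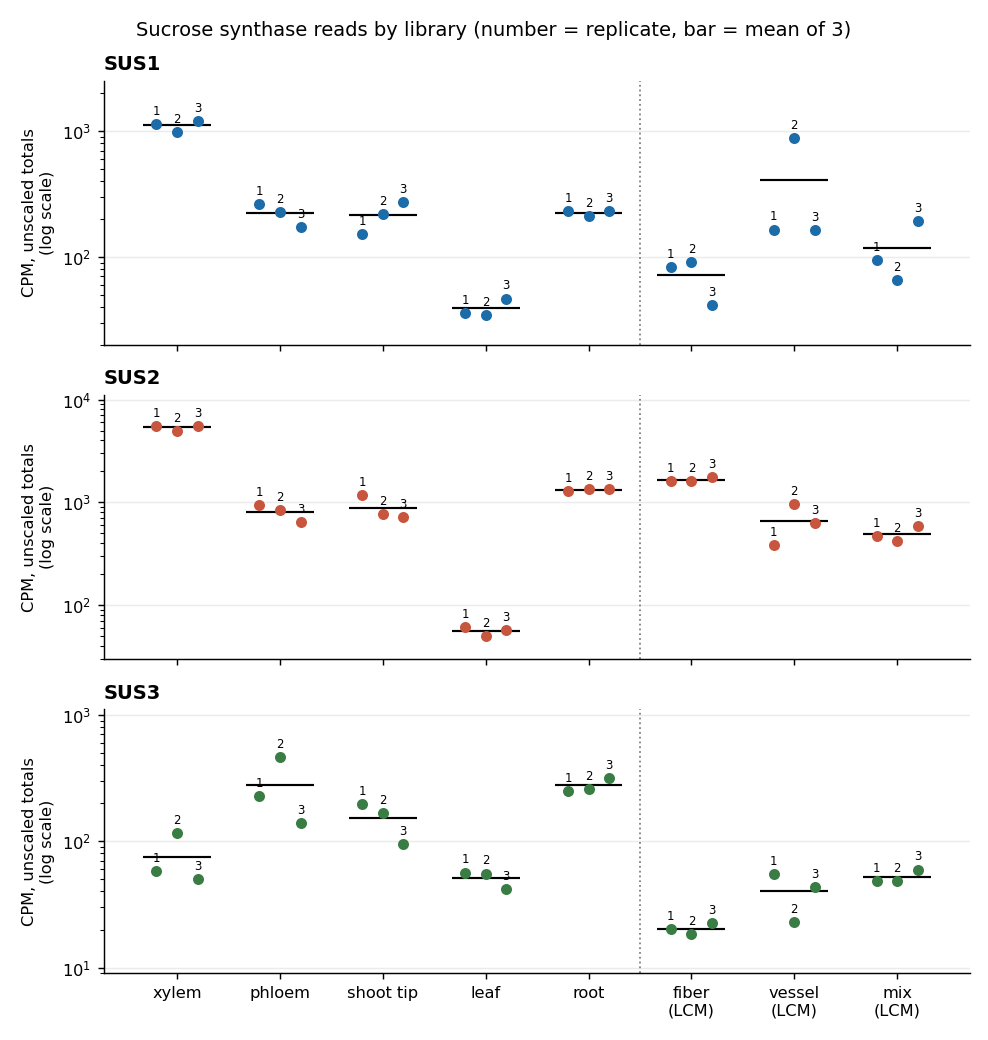
Reads of the 3 loci in each of the 24 libraries, as CPM on unscaled library totals and on a log axis of its own for each locus; points are libraries labelled with the replicate number, bars are means of 3, and LCM marks laser captures, whose RNA was amplified. SUS1 and SUS2 peak in xylem and are lowest among tissues in leaf, whereas SUS3 peaks in phloem and root, and SUS1 in vessel replicate 2 (888.1 CPM) lies far above the other vessel libraries.

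The tissues were compared in pairs with edgeR's quasi-likelihood test on all 15 tissue libraries, p-values being Benjamini-Hochberg adjusted over 31308 loci. To be called, a locus needed an adjusted p under 0.05 together with a log2 fold of 1 or more in size. The tissues differ widely, so each count of called members stands beside the share of all loci called in that comparison.

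Against phloem, across the cambium from the wood, all 3 loci were called (36.0% of all loci were), in 2 directions. SUS2 was 6.15-fold higher in xylem, at a log2 fold of 2.62 ± 0.24 (SE) and an edgeR adjusted p of 6.2e-07. SUS1 was 4.69-fold higher, at 2.23 ± 0.24 and 3.2e-06. SUS3 was 3.77-fold lower in xylem, at a log2 fold of -1.91 ± 0.37 and 6.3e-04. Its value depended on replicate 2, the high library of both groups, being -2.37 without that xylem library and -1.47 without that phloem library, and it was called in both. Against root all 3 were called as well, beside 48.6% of all loci. SUS1 was 6.46-fold and SUS2 5.30-fold higher in xylem, and SUS3 was 2.84-fold lower.

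Against leaf, 2 of 3 were called, beside 49.6% of all loci. SUS2 was 63.2-fold higher in xylem, with a log2 fold of 5.98 ± 0.28 (edgeR adjusted p = 4e-10), and SUS1 was 19.1-fold higher, at 4.26 ± 0.26 (4.5e-09). For SUS3 the log2 fold was -0.05, with a 95% interval from -0.85 to 0.75, and on unscaled totals it was 0.54. Against shoot tip, 2 of 3 were called, beside 45.8% of all loci, SUS1 being 5.28-fold and SUS2 6.31-fold higher in xylem. SUS3 had a log2 fold of -0.98 with an edgeR adjusted p of 0.029, just short of the fold required. Same-numbered libraries of xylem and shoot tip deviated together over all loci (correlations 0.34, 0.20 and 0.37), and with a replicate block SUS3 was called, at -1.03 and an adjusted p of 0.01. It was also called on unscaled totals at -1.04, by limma voom at -1.24, without xylem replicate 2 at -1.44 and without shoot tip replicate 3 at -1.14. In the remaining alternatives it was not called, and over all of them the log2 fold reached -0.68 and the adjusted p 0.16, both without xylem replicate 3.

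The xylem calls of SUS1 and SUS2 over the 4 tissues were made in all 96 alternative tests, which are 12 alternatives of scaling, filter, model or libraries for each locus and comparison. The log2 fold of SUS2 over phloem stayed between 2.54 and 2.72, and that of SUS1 between 2.15 and 2.32.

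Leaf was also the lower side against phloem, root and shoot tip, though not every locus was called. Phloem over leaf gave 3 of 3 calls, beside 45.2% of all loci, SUS2 being 10.3-fold, SUS1 4.07-fold and SUS3 3.64-fold higher in phloem. Leaf over root likewise gave 3 of 3, beside 51.3% of all loci, with root higher by 11.9-fold for SUS2, 2.96-fold for SUS1 and 2.74-fold for SUS3. In shoot tip over leaf 2 of 3 were called, beside 29.8% of all loci. SUS2 was higher in shoot tip by a log2 fold of 3.33 ± 0.25 (edgeR adjusted p = 2.6e-07), and SUS1 by 1.86 ± 0.24 (2.6e-05). SUS3 had a log2 fold of 0.93 there, at an edgeR adjusted p of 0.051. As a description only, its shoot tip libraries all lay above its leaf libraries. SUS3 was called at 1.17 without shoot tip replicate 3, at 1.58 on unscaled totals and at 1.02 by limma voom. In the remaining alternatives it was not called, with a log2 fold down to 0.76 and an adjusted p up to 0.16.

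Among phloem, shoot tip and root, no comparison called a member by edgeR, although 31.1% of all loci were called between phloem and shoot tip, 51.4% between phloem and root, and 52.0% between shoot tip and root. At an unadjusted p below 0.05 the members past it were 1, 0 and 0, and DESeq2 and limma voom called 0 in each of these comparisons. A call also needs the fold, and some smaller folds had a limma voom adjusted p below 0.05. These were SUS1 for phloem over root (log2 fold 0.56, 0.00098) and shoot tip over root (0.39, 0.0053), and SUS2 for shoot tip over root (-0.39, 0.0009). For SUS2 the log2 folds were 0.04 for phloem over shoot tip (95% interval -0.46 to 0.53), -0.22 for phloem over root (-0.71 to 0.28) and -0.25 for shoot tip over root (-0.75 to 0.25). For SUS1 they were 0.17 (-0.34 to 0.68), 0.46 (-0.05 to 0.97) and 0.29 (-0.22 to 0.80). None of these 6 intervals, all with TMM scaling, reached a log2 fold of 1 in either direction. On unscaled totals SUS2 had larger folds against root. They were -0.70 ± 0.27 (SE) for phloem (edgeR adjusted p = 0.031) and -0.58 ± 0.27 for shoot tip (0.067), neither of them called. The 3 phloem libraries all lay below the root libraries for SUS2, and the 3 shoot tip libraries all lay below root for SUS3. The share of all loci that separate so was not counted, and these are descriptions of the values only. The SUS3 intervals were wider, and for phloem over shoot tip its log2 fold of 0.93 (0.13 to 1.73) was called without phloem replicate 3, at 1.14, without phloem replicate 1, at 1.10, and without shoot tip replicate 1, at 1.11. In the remaining alternatives it was not called, and without phloem replicate 2 the log2 fold was 0.49 at an adjusted p of 0.28. The order of tissues was therefore xylem, then phloem, shoot tip and root without a call between them, then leaf for SUS1 and SUS2. For SUS3, phloem and root were called above xylem and leaf, which did not differ beyond their spread. Shoot tip lay between them, with no call against any other tissue in the main edgeR fit. That fit does not use the replicate numbers. With a replicate block, SUS3 was called lower in xylem than in shoot tip (log2 fold -1.03, edgeR adjusted p = 0.01).

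**Figure D2:**
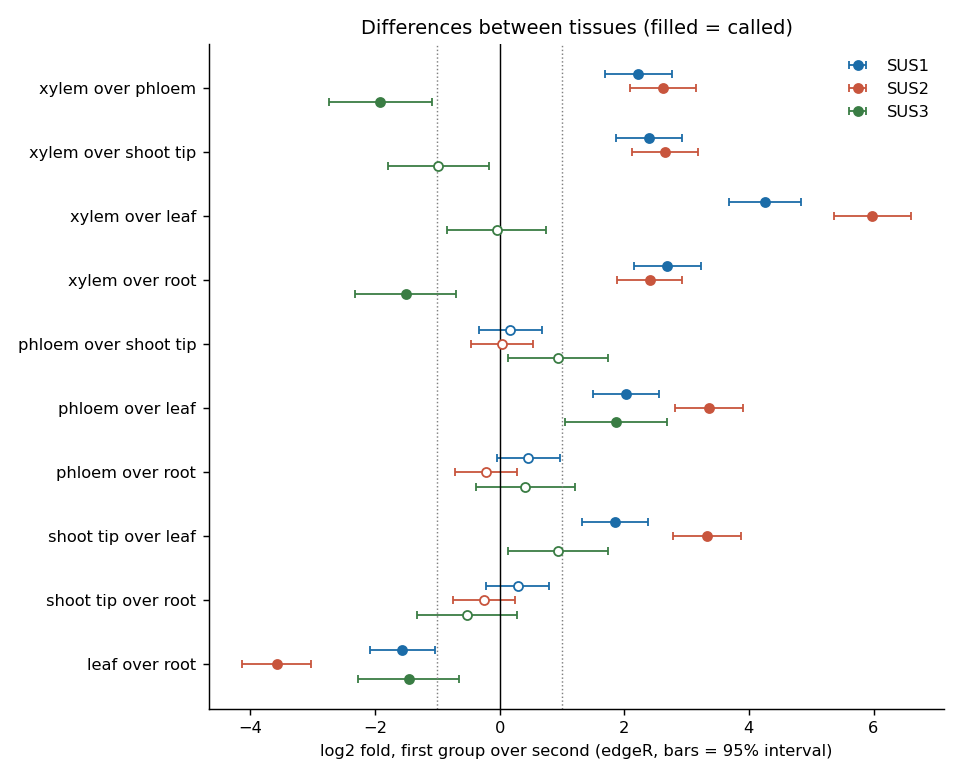
Log2 folds of the 3 loci in the 10 pairs of tissues, from the edgeR fit of 15 libraries with TMM scaling; bars are 95% intervals from the standard error and the residual degrees of freedom, filled points were called, and dotted lines mark log2 folds of 1 and -1. SUS1 and SUS2 lie to the right in every comparison of xylem with another tissue, SUS3 lies to the left or at 0 there, and no point is filled among phloem, shoot tip and root.

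The proportions of the loci within a library need no scaling between libraries, and were compared for each tissue against the 12 libraries of the other tissues with an exact two-sided permutation test. Values were adjusted over 15 tests, and 0.0044 is the smallest p this design allows. The test regroups single libraries freely, although they are replicates within tissues. A tissue whose libraries are all highest or all lowest therefore reaches that p, which describes these libraries and not a sample of tissues. The ratio of SUS1 to SUS2 counts was 0.20 to 0.22 in xylem, 0.27 to 0.28 in phloem, 0.16 to 0.18 in root and 0.13 to 0.38 in shoot tip. In leaf it was 0.58 to 0.82, above every other tissue library, a log2 difference of 1.65 (exact p = 0.0044, adjusted p = 0.016). The xylem and phloem ranges did not overlap but lay close together, although the levels of both loci differed 4.69-fold and 6.15-fold between these tissues. The xylem ratio was not separated from the other tissues (log2 difference -0.52, exact adjusted p = 0.63).

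SUS3 departed from both partners in xylem tissue. The ratio of SUS3 to SUS2 counts was 0.010, 0.023 and 0.0090 in the xylem libraries, against 0.13 to 0.55 in phloem, shoot tip and root and 0.73 to 1.10 in leaf. Xylem lay below all 12 other libraries, with a log2 difference of -4.59, and leaf above all other libraries, with 3.05 (exact adjusted p = 0.016 for both). The ratio of SUS3 to SUS1 was also lowest in xylem, at 0.042 to 0.12 against 0.35 to 2.05 in the other tissues, a log2 difference of -4.07 (exact adjusted p = 0.016). With 1 library of the tissue left out the smallest adjusted p was 0.082 for these 4 ratios, which then could not pass, and the log2 differences stayed at 1.52 to 1.77, -5.01 to -4.33, 2.91 to 3.20 and -4.53 to -3.78. In the captures the ratio of SUS3 to SUS1 was 0.20 to 0.54 in fiber, 0.026 to 0.33 in vessel and 0.31 to 0.73 in the mix. That of SUS3 to SUS2 was 0.011 to 0.013, 0.024 to 0.14 and 0.10 to 0.12.

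**Figure D3:**
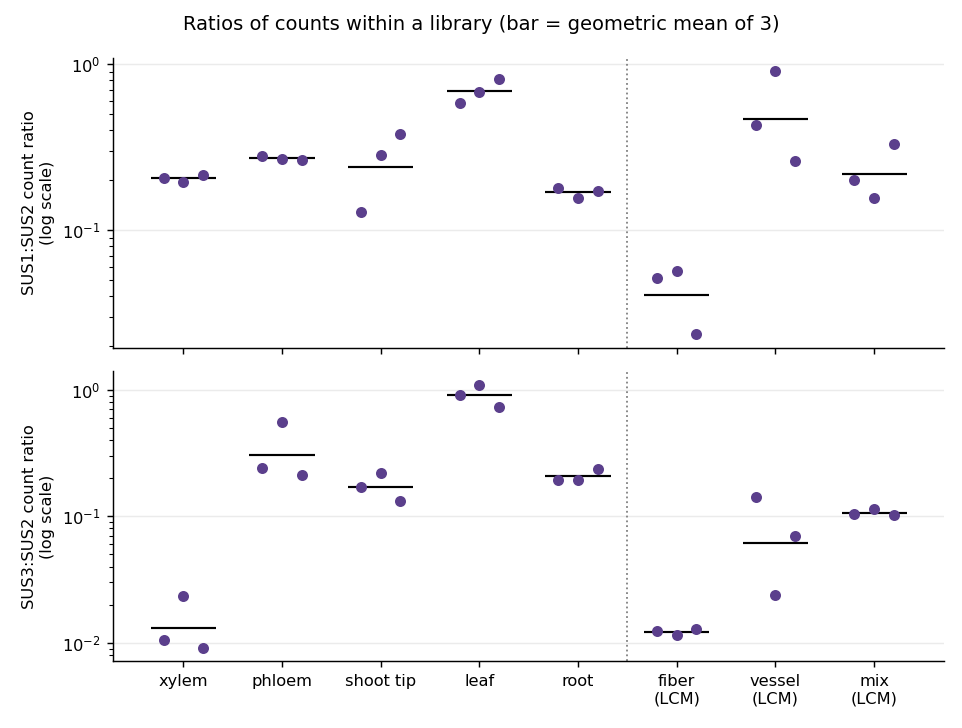
Counts of SUS1 (top) and SUS3 (bottom) divided by those of SUS2 in the same library, on log axes; points are libraries, bars are geometric means of 3, and LCM marks laser captures. Leaf has the highest ratios among the tissues in both panels, xylem and fiber have the lowest SUS3 ratios, and fiber captures have the lowest SUS1 ratios of all groups.

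Fiber and vessel captures were compared for the levels of the transcripts in these amplified samples. Ray cells were not captured alone, so the comparison cannot place the transcripts among all cells of the wood. SUS2 was higher in fiber, with 1628, 1612 and 1764 CPM against 383.9, 972.9 and 627.7 CPM in vessel. SUS1 stood the other way round, with 83.6, 91.1 and 41.5 CPM in fiber and 165.3, 888.1 and 164.6 CPM in vessel. SUS3 had 20.2, 18.5 and 22.4 CPM in fiber against 54.7, 23.1 and 43.8 CPM in vessel. No fiber library overlapped a vessel library for any of the 3 loci. How many of all loci separate in this way was not counted, so this is a description of the values only.

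In the edgeR fit of the 9 captures, 1 of 3 members was called between fiber and vessel, beside 6.05% of all 22828 loci tested. SUS2 was 2.70-fold higher in fiber, with a log2 fold of 1.43 ± 0.33 (SE) and an adjusted p of 0.029. That call was lost in 5 of the 6 fits that left out 1 library, with adjusted p from 0.053 without vessel replicate 1 to 0.092 without vessel replicate 3, while the log2 fold ran from 1.10 to 1.76. The exception was vessel replicate 2. SUS1 had a log2 fold of -2.38 ± 0.69 at an adjusted p of 0.068, and its adjusted p ran from 0.0017 to 0.32 over the alternatives. It was called by DESeq2 at -2.51, without a filter on low counts at -2.37, without vessel replicate 1 at -2.82 and in a fit of all 24 libraries at -2.43. Without vessel replicate 2, the library with 888.1 CPM, it was not called and the log2 fold was -1.15. SUS3 had -0.91 (95% interval -2.29 to 0.48, adjusted p = 0.39).

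The ratio of SUS1 to SUS2 counts was 0.051, 0.057 and 0.024 in fiber against 0.43, 0.91 and 0.26 in vessel, without overlap. The fiber values also lay below those of every tissue library and of the mix (0.16 to 0.33). With 3 libraries against 3, an exact permutation test cannot go below p = 0.1, so this is given as values only. Vessel replicate 2 stood apart in other ways as well. Its wood cellulose synthase sum was the highest of the vessel libraries, at 1819 CPM, and 1 of the other listed sucrose synthase loci, described further on, had 14.4 CPM there and 0 in the other vessel libraries. The part of these differences in the SUS1 value was not tested.

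Against the mix of cell types, fiber again held more SUS2, the mix having 470.4, 419.1 and 587.8 CPM. SUS2 alone was called, beside 0.346% of all loci, at 3.75-fold (log2 fold 1.91 ± 0.33, edgeR adjusted p = 0.043). The call was lost without any 1 of the 6 libraries, with adjusted p from 0.082 to 0.21 and log2 folds from 1.81 to 2.03. Wood cellulose synthase sums differed in the same direction, being 7144 to 9789 CPM in fiber and 2393 to 2768 CPM in the mix. The ratio of SUS2 to that sum was 0.17 to 0.23 in fiber and 0.17 to 0.22 in the mix, which overlapped, and 0.34 to 0.55 in vessel. SUS1 had 94.7, 65.9 and 194.8 CPM in the mix, which overlapped with fiber (log2 fold -0.55, 95% interval -2.16 to 1.06). SUS3 had 48.5, 48.2 and 59.7 CPM in the mix, all above fiber (log2 fold -1.21, -2.60 to 0.18, adjusted p = 0.49).

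Between vessel and the mix no member was called by edgeR, beside 0.0131% of all loci. At an unadjusted p below 0.05 the count was 1, and DESeq2 and limma voom called 0. The locus at that p was SUS1, at a log2 fold of 1.83 (95% interval 0.17 to 3.48, adjusted p = 0.26) that was 0.59 without vessel replicate 2. SUS2 was at 0.47 (-0.32 to 1.27) and SUS3 at -0.30 (-1.68 to 1.07).

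Captures were set beside xylem tissue in separate fits of 6 libraries. Amplification cannot be told apart from capture here, and with bulk samples fewer cells of a type and less RNA per cell cannot be told apart either. SUS2 was lower in each capture than in the tissue, by 3.05-fold in fiber, 7.92-fold in vessel and 11.3-fold in the mix (edgeR adjusted p = 0.0085, 0.0068 and 1.8e-04). All 3 members were called between fiber and xylem, beside 22.4% of all loci. SUS1 was 14.5-fold and SUS3 3.47-fold lower in fiber (adjusted p = 0.004 and 0.015). The SUS2 call was lost without xylem replicate 1 or 3, at adjusted p values of 0.05, just past the threshold, and 0.054. The wood cellulose synthase sum, by contrast, overlapped between fiber and xylem, so that the ratio of SUS2 to it was 0.17 to 0.23 in fiber and 0.47 to 0.75 in xylem.

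Between the mix and xylem 2 of 3 were called, beside 38.2% of all loci. SUS1 was 9.83-fold lower in the mix (log2 fold -3.30 ± 0.40, adjusted p = 7.7e-04), and SUS3 had a log2 fold of -0.57 (95% interval -1.43 to 0.30). Between vessel and xylem 1 of 3 was called, beside 17.4% of all loci. SUS1 had -1.41 there (95% interval -3.34 to 0.51, adjusted p = 0.26) and was called without vessel replicate 2, at -2.71 and an adjusted p of 0.012. It was not called in the other alternatives, where the log2 fold reached -1.01.

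**Figure D4:**
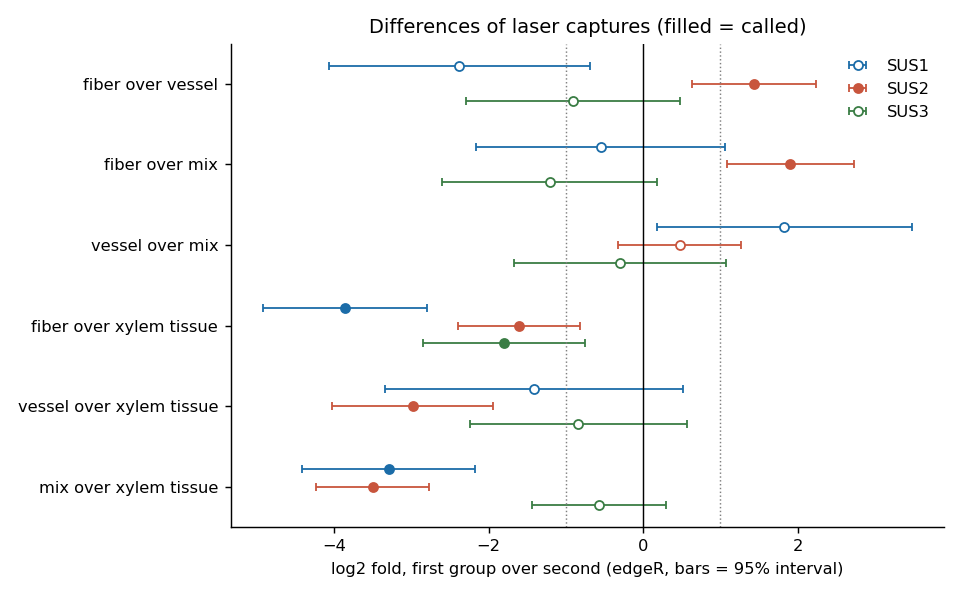
Log2 folds of the 3 loci between laser captures, from the edgeR fit of 9 captures, and of each capture over xylem tissue, from fits of 6 libraries; bars are 95% intervals, filled points were called, and dotted lines mark log2 folds of 1 and -1. SUS1 and SUS2 lie on opposite sides of 0 for fiber over vessel, and all points for captures over xylem tissue lie below 0, where amplification cannot be told apart from capture.

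Another 4 loci had been listed as sucrose synthases from recalled poplar nomenclature, an assignment not checked against any annotation, so they are described as a group. Each was highest in phloem, as far as group means go, and near 0 in wood. They summed to 113 to 156 CPM in phloem, 44.4 to 82.6 CPM in shoot tip, 17.6 to 40.8 CPM in leaf, 14.6 to 18.8 CPM in root, and 1.39 to 2.99 CPM in xylem. All 4 were called lower in xylem than in phloem, shoot tip, leaf and root. Of all loci 36.0%, 45.8%, 49.6% and 48.6% were called there, in either direction. The median log2 fold over phloem was -7.06, beside 0.0 over all loci, although 2 of them rested on 2 and 4 counts in the xylem libraries together. Potri.004G081300 had 71.2, 91.7 and 63.8 CPM in phloem and 0.78, 1.83 and 0.33 CPM in xylem (log2 fold -6.36 ± 0.49, edgeR adjusted p = 1.3e-07). Potri.017G139100 had 29.5, 30.4 and 20.9 CPM in phloem and 0.99, 0.95 and 1.07 CPM in xylem (-4.83 ± 0.43, 5.3e-07). Between leaf and root, where 51.3% of all loci were called, all 4 were called higher in leaf, with log2 folds from 1.33 to 2.04. The 3 members were called lower in leaf. The call of the 4 loci depends on scaling, since on unscaled totals their log2 folds were 0.35 to 1.05 and 1 of 4 was called. Of SUS1, SUS2 and SUS3, the last shared the order of phloem above xylem with these loci. In the captures 24 of 36 values of these loci were 0.

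**Figure D5:**
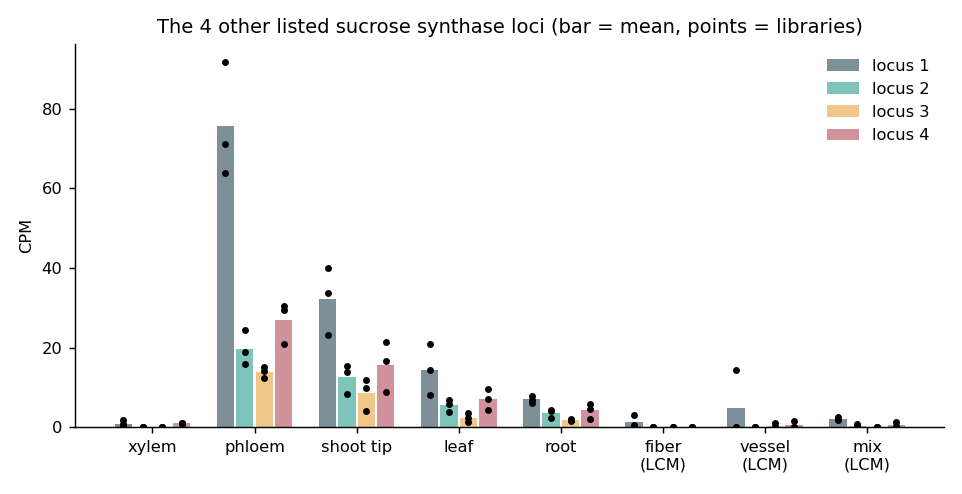
CPM on unscaled totals of the 4 other loci listed as sucrose synthases, in the 8 groups; bars are means of 3 libraries, points are libraries, and loci 1 and 4 are Potri.004G081300 and Potri.017G139100. Phloem has the highest mean for each locus, and values in xylem and in the laser captures (LCM) lie near 0 apart from locus 1 in 1 vessel library.

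Likeness to the members was measured as Pearson's r of log2(CPM + 1) over the 15 tissue libraries, among 16542 other loci with a mean of at least 10 CPM. These points share libraries and fall into 5 tissues, so r is a description. SUS1 and SUS2 had r = 0.96 with each other, and 19 loci were more like SUS1 than SUS2 was. Closest to SUS1 were Potri.001G300900 (r = 0.986) and Potri.010G108100 (0.98), the former with 384.8 to 674.4 CPM in xylem and 13.7 to 19.7 CPM in leaf. Closest to SUS2 were Potri.010G147400 (0.983) and Potri.003G161900 (0.982), the latter with 1048 to 1302 CPM in xylem and 59.9 to 98.1 CPM in leaf. Closest to SUS3 were Potri.001G002000 (0.971) and Potri.014G024200 (0.968), the former with 285.0 to 694.3 CPM in phloem and 141.9 to 225.9 CPM in xylem. With SUS3, r was 0.14 for SUS1 and 0.32 for SUS2.

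Over the 9 captures the likeness of SUS1 and SUS2 was absent, at r = -0.19. The loci closest to SUS1 over tissues had r of -0.05 and 0.06 with it there, and those closest to SUS2 had 0.73 and 0.37. SUS2 and SUS3 had r = -0.93 over the captures, fiber being highest for SUS2 and lowest for SUS3. With the summed wood cellulose synthases, SUS2 had r = 0.77 over the tissues and 0.82 over the captures, whereas SUS1 had 0.87 and -0.57, and SUS3 had -0.21 and -0.72.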

How the data were processed

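Whole-number read counts by locus, with no normalization, are what the authors deposited. TopHat was used, per the submitters' processing notes. For the counting tool, build, annotation and strand, the settings were not given in the sources used. Reads from any near-identical copies of the loci may therefore have been shared out in an unknown way. All 24 columns matched a sample title (0 columns had none). The tests used edgeR 4.0.16 under R 4.3.3 (filterByExpr, TMM, quasi-likelihood test), with DESeq2 1.42.0 and limma 3.58.1 as alternatives, and in Python 3.11.15 with scipy 1.17.1, numpy 2.4.6 and matplotlib 3.10.9. Separate fits took the 15 tissue libraries (31308 loci, biological coefficient of variation 27.4%), the 9 captures (22828 loci, 111.3%), and each capture with xylem (23735 loci and 73.4% for fiber, 24194 and 104.2% for vessel, 25245 and 36.9% for the mix). Standard errors are the absolute log2 fold over the square root of F. Only the edgeR fits were tried on simulated counts, for the first comparison of each fit, to check the size of the folds. The alternatives and the permutation test were not tried in this way.

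Replicates differed by more than sampling noise (chi-square per degree of freedom 5.89 to 243.5), and none was merged. Same-numbered libraries deviated together, with a correlation over 0.1 for all 3 numbers, in xylem with phloem (0.15, 0.41 and 0.16), shoot tip (0.34, 0.20 and 0.37) and leaf (0.14, 0.23 and 0.34), and in no other compared pair of groups. The pairing therefore comes from the data, not the labels.

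Members and lists were chosen with earlier results of these data known. Named loci are the members, the other listed sucrose synthase loci (identifiers printed only for the 2 most abundant, chosen after their values were seen), and the 2 loci most like each member. A rule to name more was not applied, because 0 identifiers matched the reference (assembly P.trichocarpa_v4.1), and 10 lists by product name could not be applied either.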

Additional observations from a re-analysis of the deposited data

How the results depend on the processing

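Between tissues the fit of all 24 libraries called fewer loci, namely 4393 for xylem over phloem (11267 otherwise), 6964 over shoot tip (14343), 8883 over leaf (15517) and 8343 over root (15219), 3567 for phloem over shoot tip (9750), 7047 over leaf (14165) and 8520 over root (16088), 2482 for shoot tip over leaf (9344), 8342 over root (16275), and 8637 for leaf over root (16047). Between tissues the count of called members moved by over 1.5 times only for phloem over shoot tip, where leaving out 1 library gave 0 to 1. For fiber over vessel (1380 loci) DESeq2 called 4269, limma voom with sample weights, chosen after seeing the data, 353, the fit of all 24 libraries 9369, and fits without 1 library 599 to 2040. The members called were 2 by DESeq2, 2 without a filter, 2 with all libraries, and 0 to 1 without 1 library. For fiber over the mix (79 loci) the counts were 1012, 133 without a filter, 1501 with voom, 4067 with all libraries and 16 to 36 without 1 library, and the members called were 0 on unscaled totals, 0 with a replicate block, 2 with all libraries and 0 to 0 without 1 library. For vessel over the mix (3 loci) DESeq2 called 1443, unscaled totals 8, no filter 56, the replicate block 0, all libraries 6128, and fits without 1 library 0 to 264, with 1 member called in the fit of all libraries. For fiber over xylem the replicate block called 1750 loci (5325 otherwise) and 1 member, and 2762 to 8291 loci were called without 1 library. For vessel over xylem the block called 871 (4198), and fits without 1 library called 1781 to 8064 loci and 1 to 2 members. With the block, SUS2 and SUS3 were not called for fiber over xylem (edgeR adjusted p = 0.054 and 0.058). In these capture comparisons the correlations of same-numbered libraries did not all exceed 0.1. A pairing was therefore not taken, which does not show that there was none. Where all 3 correlations exceeded 0.1, the block changed the call of SUS3 between xylem and shoot tip alone among the members. For fiber over xylem limma voom did not call SUS3, at a log2 fold of -1.65 and an adjusted p of 0.27. Unscaled totals moved calls towards root and away from leaf. Higher and lower loci were 10271 and 7317 for xylem over leaf (6426 and 9091 with TMM), 4642 and 10736 for xylem over root (6640 and 8579), 9461 and 6387 for phloem over leaf (6016 and 8149), 5157 and 11231 for phloem over root (7385 and 8703), 8118 and 3277 for shoot tip over leaf (3889 and 5455), 6421 and 10275 for shoot tip over root (7990 and 8285), and 4987 and 14693 for leaf over root (8230 and 7817). Causes were not tested. Called SUS folds did not change direction in any alternative run. The other listed sucrose synthase loci had few counts in wood, each 2 to 45 in the xylem libraries together. SUS1, SUS2 and SUS3 had at least 168 counts in every library. Several capture calls of SUS1 and SUS2 changed when 1 library was left out.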
